A study of Homo sapiens with 12 samples.

Results

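The 7 genes that encode the human CDK inhibitor proteins were followed across 4 treatments of CAMA-1 cells, an established ER-positive human breast cancer cell line. They were chosen by symbol as the members of the CIP/KIP family (CDKN1A, CDKN1B and CDKN1C) and of the INK4 family (CDKN2A, CDKN2B, CDKN2C and CDKN2D), and all 7 were found among the 60612 named rows of the count table. All 7 also passed the filter on low counts that left 11803 genes for testing. CDKN2C passed through its level in the untreated cells, and only 5 of the 12 libraries held at least 10 of its reads.

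All cells were wild-type CAMA-1 and all were grown in the same serum-containing medium. Controls received the vehicle DMSO. One group received abemaciclib, an inhibitor of the kinases CDK4 and CDK6, at 100 nM, and another received fulvestrant, a drug that binds and degrades ER, at 5 nM. The remaining group received both drugs, at doses that the labels do not repeat. The labels give no treatment time. Each group held 3 libraries from biological replicates of this 1 cell line. Messenger RNA was measured by 3′ sequencing, in which a transcript is read near its polyadenylated end, so that levels of different genes depend little on gene length. Levels are given as CPM, a gene's read count divided by the TMM-scaled total of its library in units of 1e+06 reads.

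Total counts ranged from 3299119 to 5164667 reads per library, and no 2 replicates agreed within sampling noise. Fulvestrant replicate 3 stood furthest from its group. The 7 luminal markers were all detected, with summed levels of 5560 to 5900 CPM in DMSO, 6570 to 6710 CPM under abemaciclib, 7000 to 7650 CPM under fulvestrant and 6660 to 7370 CPM under both drugs. None of the 4 basal markers reached a mean of 1 CPM in any group. Of 6 stromal and immune markers only COL1A1 did, with the summed level of the list between 14.2 and 25.9 CPM over all libraries. Mitochondrial transcripts took 12.0% to 12.5% of reads in DMSO and 15.6% to 20.6% in the 9 treated libraries. They moved with every comparison against DMSO below, and their part in the results was not tested.

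CDK inhibitor proteins restrain the cyclin-dependent kinases that carry cells from G1 into S phase. INK4 proteins bind CDK4 and CDK6 and keep them from pairing with D-type cyclins, so that the retinoblastoma protein Rb stays active and E2F target genes stay silent. CIP/KIP proteins bind whole cyclin-CDK complexes, above all those of CDK2, and are also controlled by protein degradation, which a transcript count does not show. In ER-positive breast cancer, CDK4/6 inhibitors and antioestrogens both arrest cells in G1, and CDKN1A (p21) and CDKN1B (p27) are the inhibitors best known in the response to antioestrogens.

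In untreated cells, CDKN2A and CDKN1B were the most abundant of the 7 transcripts. CDKN2A had 76.4 ± 6.63 CPM (SD, n = 3 here and below) and CDKN1B 53.1 ± 1.96 CPM, which placed them at percentiles 78.5 and 70.4 of the tested genes. CDKN2D followed with 22.4 ± 4.03 CPM, CDKN2C with 20.2 ± 2.85 CPM and CDKN1A with 15.3 ± 1.39 CPM. The libraries of CDKN2D and CDKN2C overlapped, whereas those of CDKN1A all lay below both. CDKN2B (7.19 ± 0.578 CPM) and CDKN1C (7.16 ± 1.18 CPM) came last, at percentiles 23.1 and 23.0, with overlapping libraries.

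Under treatment CDKN1A and CDKN2B rose and the other members fell or did not pass the test. Abemaciclib changed 7 of the 7 genes, 2 higher and 5 lower (edgeR F test, p adjusted over all genes tested by Benjamini-Hochberg, threshold 0.05), against a background of 41.2% of all genes called, 20.5% higher and 20.7% lower. Fulvestrant changed 5, of which 2 were higher and 3 lower, against 51.0% of all genes, 25.3% higher and 25.7% lower. The combination changed 6, of which 2 were higher and 4 lower, against 55.2% of all genes, 27.7% higher and 27.5% lower. The median log2 fold change of the 7 genes was -0.50 under abemaciclib, -0.29 under fulvestrant and -0.38 under the combination, beside medians of 0.00, 0.01 and 0.01 over all genes tested. These comparisons share the DMSO libraries. CDKN2C was admitted by the filter only through its DMSO level and so had to differ from DMSO; of the 6 other members, abemaciclib changed 6, fulvestrant 4 and the combination 5. With shares of this size in the background, the number of members called is not itself a feature of the family, and the sizes and directions below carry the description. An exact permutation test of 3 libraries against 3 cannot give a two-sided p below 0.1, so the p-values come from the model fitted across all genes. In bulk RNA, fewer expressing cells and less RNA per cell cannot be told apart.

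**Figure D1:**
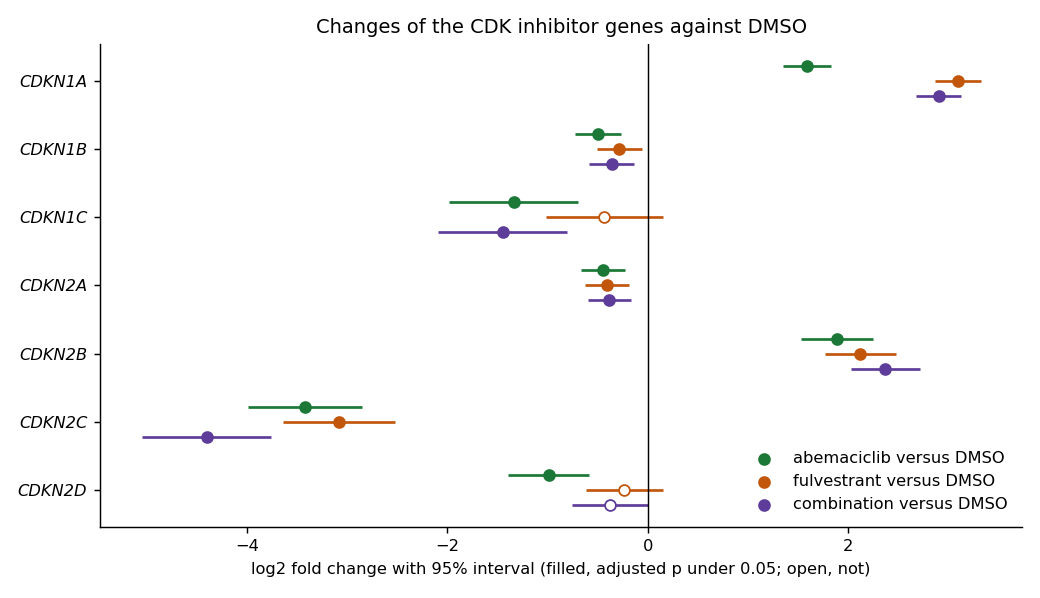
Log2 fold changes against DMSO for the 7 CDK inhibitor genes, with 95% intervals, for abemaciclib, fulvestrant and the combination. Filled points passed the test and open points did not. For CDKN2C the filled points carry no weight, since the filter kept that gene only through DMSO. CDKN1A and CDKN2B lie to the right of 0 under every treatment, with CDKN1A at 3.10 under fulvestrant, and CDKN2C lies furthest to the left, at -4.40 under the combination.

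Promoter sequences from RefSeq (GRCh38.p14, 250 bases before to 50 bases after the annotated start) were found for 6 of the 7 genes. They are shown for CDKN1A and CDKN2B, which rose together, and for CDKN2C, which fell furthest. In the first 2, positions -150 to -11 from the start are printed 5′ to 3′ on the gene's strand and capitals mark GC boxes, the letters GGGCGG or their reverse complement, to which Sp1-type factors bind. In CDKN2C, 30 bases from positions -143 to -114 of its second annotated promoter are printed, and capitals mark an E2F-type match, the letters GGCGGGAA.
CDKN1A, chr6:36678564-36678703, plus strand: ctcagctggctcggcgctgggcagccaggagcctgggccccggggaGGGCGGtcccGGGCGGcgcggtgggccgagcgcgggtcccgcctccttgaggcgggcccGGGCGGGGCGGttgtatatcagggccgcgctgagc
CDKN2B, chr9:22009316-22009455, minus strand: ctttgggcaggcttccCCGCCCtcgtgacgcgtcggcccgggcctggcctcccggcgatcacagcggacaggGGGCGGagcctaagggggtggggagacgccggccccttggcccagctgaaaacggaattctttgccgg
CDKN2C, chr1:50968563-50968592, plus strand: ggagagcgggaGGCGGGAAtgagggcgcgg

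The CDKN1A window held 4 GC boxes, of which the last 2 share 1 base, and the CDKN2B window held 2, 1 of them on the opposite strand. In GENCODE v44 the CDKN1A window lies within the span of its gene and holds no exon bases, the CDKN2B window lies upstream of its gene, and the 30 CDKN2C bases are exonic in other transcripts of it. The 6 genes have 9 annotated promoters in all, with 3 for CDKN2C and 2 for CDKN2A. A GC box was found on either strand of 7 of the 9, against 45.0% of all 35116 RefSeq promoters of this length. Over the full 300 bases, CDKN1A held 4 GC boxes, CDKN2B 2, CDKN2D 3 and CDKN1B 1. CDKN2C held 0, 6 and 1 in its 3 promoters, in order, and CDKN2A 0 and 2. GC boxes were thus not confined to the genes that rose. The E2F-type letters, which lie apart from the GC boxes of the second CDKN2C promoter, were found in 1 of the 9 and in 3.16% of all promoters. CACGTG, the E box, was found in 2 of the 9, both of them other promoters of CDKN2C, and in 7.26% of all promoters. The full oestrogen response element, GGTCANNNTGACC, was in 0 of the 9 and in 0.057% of all promoters. These are matches of letters and say nothing of binding in CAMA-1 cells.

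CDKN1A encodes p21, the CIP/KIP protein that blocks CDK2 complexes and the replication clamp PCNA. The gene lies on chromosome 6 at positions 36676460 to 36687337 (GRCh38, plus strand). Its level was 13.9, 16.7 and 15.1 CPM in DMSO replicates 1, 2 and 3, and 46.2, 48.1 and 44.7 CPM in abemaciclib. It was 132, 142 and 122 CPM in fulvestrant and 119, 111 and 118 CPM in the combination. All 9 treated libraries lay above all DMSO libraries, and all libraries with fulvestrant, alone or combined, lay above those with abemaciclib alone. The rise was 3.01-fold under abemaciclib, a log2 fold change of 1.59 ± 0.12 (SE; edgeR adjusted p = 1.64e-11), 8.56-fold under fulvestrant (3.10 ± 0.11, adjusted p = 2.05e-18) and 7.51-fold under the combination (2.91 ± 0.11, adjusted p = 2.13e-18). Levels were 2.84-fold higher under fulvestrant than under abemaciclib (1.51 ± 0.09, adjusted p = 1.43e-12) and 2.49-fold higher under the combination than under abemaciclib (1.32 ± 0.09, adjusted p = 1.12e-11). The combination libraries lay just below the fulvestrant libraries without overlap, but the difference of -0.19 (95% interval -0.37 to -0.01) missed the threshold after adjustment (adjusted p = 0.398). CDKN1A was thus the member that went from the fifth most abundant in DMSO to the most abundant under fulvestrant and under the combination. DINOL, an antisense RNA gene that shares 146 exon bases with it, had no reads in any library.

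CDKN1B encodes p27, which holds cyclin E and cyclin A complexes with CDK2 inactive and whose amount in cells is set largely by degradation through SKP2. It lies on chromosome 12 at 12685498 to 12722369 (plus strand). Its level was 55.2, 51.3 and 52.9 CPM in the DMSO libraries and 35.2, 37.5 and 39.9 CPM under abemaciclib. Fulvestrant libraries had 45.0, 39.2 and 46.0 CPM and combination libraries 43.3, 38.3 and 42.1 CPM. Every treated library lay below every DMSO library, while the 3 treated groups overlapped one another. The transcript fell by 0.50 ± 0.11 on the log2 scale under abemaciclib (SE; edgeR adjusted p = 0.000623), a 1.41-fold decrease, and by 0.36 ± 0.11 under the combination (adjusted p = 0.00578). Under fulvestrant it fell by 0.29 ± 0.11 (adjusted p = 0.0315). This last call was lost in 8 of the 19 alternative settings, with an adjusted p of 0.0601 in DESeq2, 0.0873 with no filter on low counts and 0.0578 with only the groups compared. Without DMSO replicate 1, 2 or 3 it was 0.0909, 0.0527 and 0.0645, and without fulvestrant replicate 1 or 2 it was 0.0514 and 0.132. GPR19, on the opposite strand across part of the gene, shares no exon bases with it and had at most 7 reads in a library.

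CDKN1C encodes p57, an imprinted CIP/KIP gene best known in embryonic growth. It lies on chromosome 11 at 2883213 to 2885775 (minus strand) and was the least abundant CIP/KIP member in every group. Levels of 7.12, 8.36 and 5.99 CPM were measured in DMSO and of 3.20, 1.99 and 3.28 CPM in abemaciclib. Fulvestrant libraries had 4.94, 7.33 and 3.87 CPM, and libraries with both drugs 2.65, 2.48 and 2.72 CPM. The libraries that had received abemaciclib, alone or combined, lay below all DMSO and fulvestrant libraries, and fulvestrant overlapped DMSO. The gene fell 2.53-fold under abemaciclib (-1.34 ± 0.31 SE, edgeR adjusted p = 0.00108) and 2.73-fold under the combination (-1.45 ± 0.31, adjusted p = 0.000299). Under fulvestrant alone the difference of -0.44 had a 95% interval of -1.02 to 0.15 (adjusted p = 0.210). The level under fulvestrant was 1.87-fold that under abemaciclib (0.90 ± 0.33, adjusted p = 0.0406). That call was lost in 8 of 18 settings, with an adjusted p of 0.0770 in DESeq2, 0.0811 with no filter and 0.0727 with only the groups compared. Without abemaciclib replicate 1, 2 or 3 the adjusted p was 0.0602, 0.169 and 0.0552, and without fulvestrant replicate 1 or 2 it was 0.0607 and 0.211. With 9 to 44 reads per library, the gene allowed only coarse estimates.

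CDKN2A encodes the INK4 protein p16 and, from another first exon, the unrelated p14ARF. Counts per gene do not separate these transcripts. The gene lies on chromosome 9 at 21967752 to 21995301 (minus strand). DMSO libraries had 68.9, 81.3 and 79.0 CPM and abemaciclib libraries 57.6, 51.9 and 58.9 CPM, followed by 57.6, 65.7 and 50.8 CPM in fulvestrant and 57.5, 61.8 and 56.7 CPM in the combination. All 9 treated libraries were below the lowest DMSO library, and the treated groups overlapped one another. The decrease was 1.37-fold under abemaciclib (-0.45 ± 0.11 SE, edgeR adjusted p = 0.00117), 1.33-fold under fulvestrant (-0.41 ± 0.11, adjusted p = 0.00227) and 1.31-fold under the combination (-0.39 ± 0.10, adjusted p = 0.00277). The differences between treatments were 0.04 for fulvestrant against abemaciclib (95% interval -0.18 to 0.27), 0.06 for the combination against abemaciclib (-0.16 to 0.29) and 0.02 for the combination against fulvestrant (-0.20 to 0.24).

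CDKN2B, which encodes p15, the INK4 protein known for its induction by TGF-β, lies on chromosome 9 at 22002903 to 22009305 (minus strand), 7601 bases from CDKN2A, yet it changed in the opposite direction. Its level was 6.53, 7.60 and 7.44 CPM in DMSO and 28.8, 28.5 and 23.2 CPM in abemaciclib. It was 33.6, 29.6 and 31.7 CPM in fulvestrant and 31.0, 43.2 and 38.4 CPM in the combination. Treated libraries were all at least 23.2 CPM and DMSO libraries at most 7.60 CPM. The gene rose 3.70-fold under abemaciclib (1.89 ± 0.17 SE, edgeR adjusted p = 1.27e-09), 4.35-fold under fulvestrant (2.12 ± 0.17, adjusted p = 5.30e-11) and 5.18-fold under the combination (2.37 ± 0.17, adjusted p = 2.13e-12). Fulvestrant differed from abemaciclib by 0.23 (95% interval -0.06 to 0.52, adjusted p = 0.241). The combination exceeded abemaciclib 1.40-fold (0.48 ± 0.14, adjusted p = 0.00734). Without abemaciclib replicate 3 the adjusted p of that difference was 0.0536, and without combination replicate 2 it was 0.0689.

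The neighbours at this locus did not follow CDKN2B. CDKN2B-AS1 (ANRIL), a long noncoding RNA on the opposite strand that overlaps both genes and shares 593 exon bases with CDKN2A and none with CDKN2B, had 34.4 ± 0.992 CPM in DMSO. It fell to 21.5 ± 0.283 CPM under abemaciclib, 18.3 ± 1.81 CPM under fulvestrant and 17.0 ± 2.51 CPM under the combination, log2 fold changes of -0.68, -0.91 and -1.02 (edgeR adjusted p = 0.000234, 4.60e-06 and 5.48e-07). Whether the authors' counting used the strand is not stated, so its reads in the shared exons cannot be told apart from those of CDKN2A. MTAP, a metabolic enzyme gene 30101 bases from CDKN2A, went from 34.0 ± 0.192 CPM to 26.2 ± 2.11 CPM under the combination (-0.37 ± 0.14, adjusted p = 0.0249) and did not pass the test under abemaciclib (-0.27, adjusted p = 0.120) or fulvestrant (-0.31, adjusted p = 0.0741). CDKN2A-DT, UBA52P6 and ERVFRD-3 had no reads. The ratio of CDKN2B to CDKN2A reads was 0.0935 to 0.0948 in the DMSO libraries, 0.395 to 0.549 under abemaciclib, 0.451 to 0.623 under fulvestrant and 0.540 to 0.699 under the combination.

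**Figure D2:**
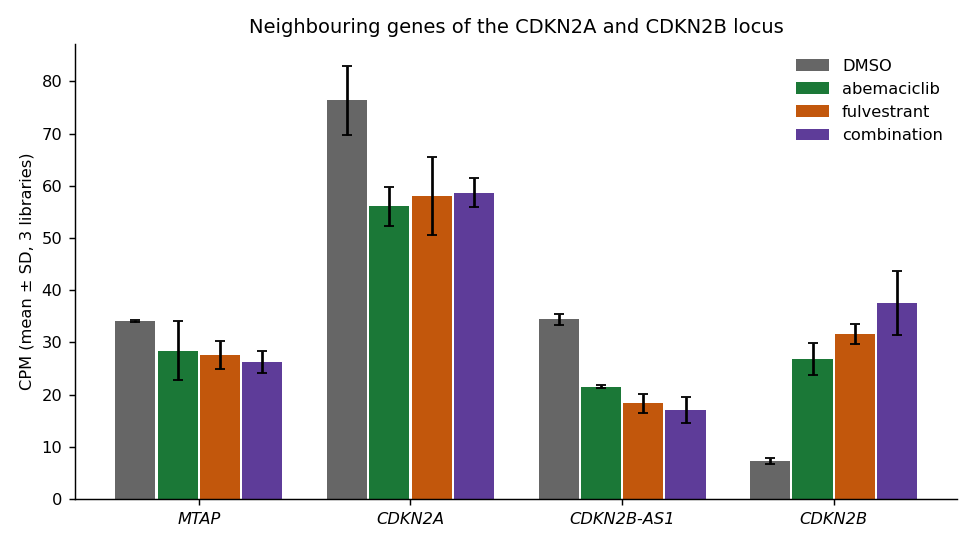
Levels in CPM (bars, mean; error bars, SD of 3 libraries) of the neighbouring genes of the CDKN2A and CDKN2B locus in the 4 groups. CDKN2B climbs from 7.19 CPM in DMSO to 37.6 CPM in the combination, whereas CDKN2A, CDKN2B-AS1 and MTAP have their highest bars in DMSO.

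CDKN2C encodes p18, an INK4 protein and a known E2F target. It lies on chromosome 1 at 50960745 to 50974634 (plus strand). DMSO libraries had 23.4, 18.4 and 18.6 CPM, from 79, 97 and 90 reads. Abemaciclib libraries had 2.20, 1.99 and 1.26 CPM (11, 9 and 5 reads), fulvestrant libraries 1.48, 2.54 and 2.96 CPM (6, 9 and 13 reads) and combination libraries 0.722, 0.827 and 1.17 CPM (3, 4 and 6 reads). Every treated library was far below every DMSO library, and the combination libraries lay below all others. As a description, the fitted level was 10.7-fold lower than in DMSO under abemaciclib (log2 fold change -3.42 ± 0.28 SE), 8.47-fold lower under fulvestrant (-3.08 ± 0.27) and 21.2-fold lower under the combination (-4.40 ± 0.31). The filter kept the gene only through DMSO, so no p-value is given for these comparisons. With no filter on low counts the fitted values were -3.39, -3.07 and -4.39. The folds rest on at most 13 reads in any treated library and are coarse. Although its libraries did not overlap those of either single drug, the combination did not pass the test against abemaciclib (-0.99, 95% interval -1.94 to -0.03, adjusted p = 0.105) or against fulvestrant (-1.32, 95% interval -2.25 to -0.39, adjusted p = 0.180). In the newer GENCODE v44 annotation an unnamed antisense RNA gene shares 617 exon bases with CDKN2C; it has no row in the count table.

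CDKN2D encodes p19, the remaining INK4 protein, and lies on chromosome 19 at 10566460 to 10569059 (minus strand). The DMSO libraries had 18.4, 22.2 and 26.5 CPM and the abemaciclib libraries 15.2, 9.71 and 8.59 CPM, against 20.0, 20.3 and 17.3 CPM for fulvestrant and 18.3, 20.1 and 13.8 CPM for both drugs. Only the abemaciclib libraries lay wholly below DMSO; fulvestrant and combination libraries overlapped DMSO and each other. Abemaciclib lowered it 1.99-fold (-0.99 ± 0.20 SE, edgeR adjusted p = 0.000218). Under fulvestrant the difference from DMSO was -0.24 (95% interval -0.62 to 0.15, adjusted p = 0.300) and under the combination it was -0.38 (-0.76 to 0.00, adjusted p = 0.0814). The combination difference passed the threshold without DMSO replicate 1 (-0.49, adjusted p = 0.0396) and with only the groups compared (-0.39, adjusted p = 0.0494). Fulvestrant libraries exceeded abemaciclib libraries 1.69-fold (0.76 ± 0.21, adjusted p = 0.00626) and combination libraries did so 1.53-fold, with overlap (0.61 ± 0.20, adjusted p = 0.0217). Without abemaciclib replicate 2 or 3 the adjusted p of the latter was 0.104 and 0.119, and without combination replicate 1 or 2 it was 0.0646 and 0.117.

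**Figure D3:**
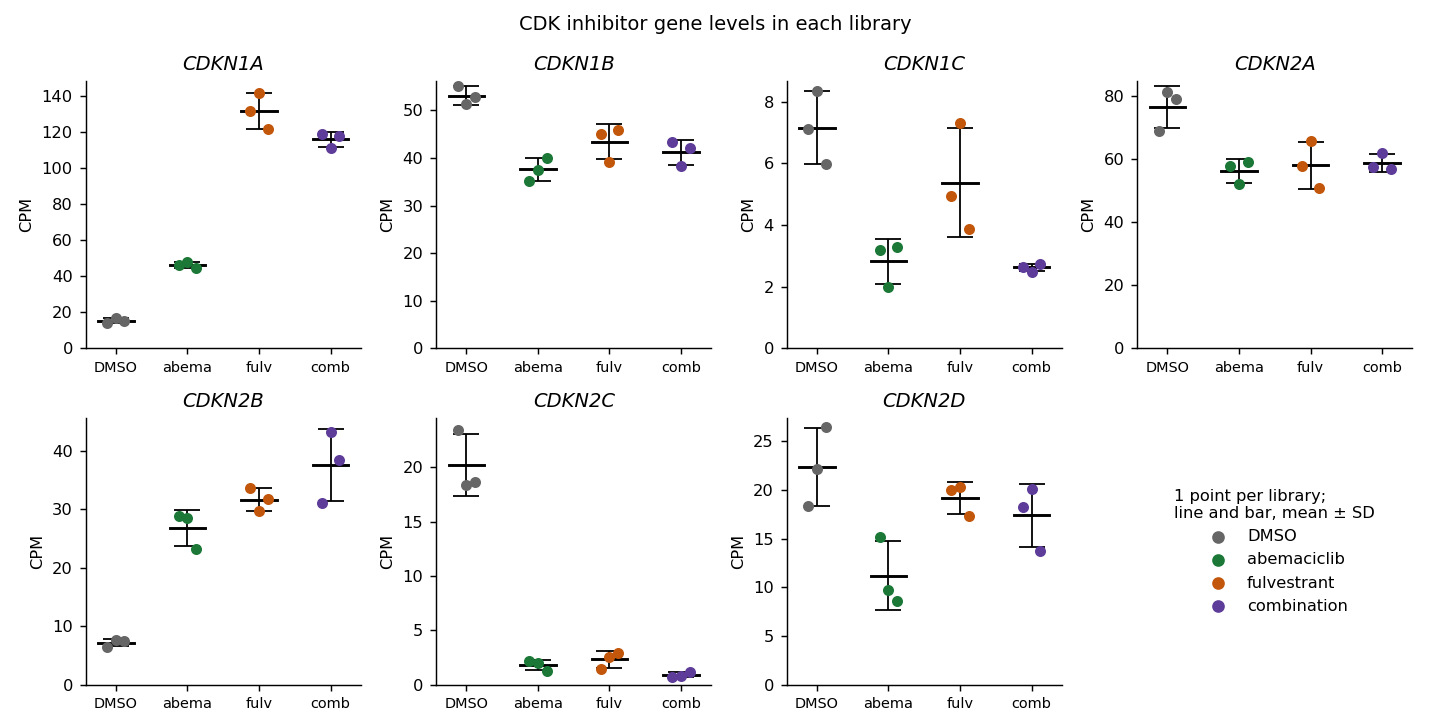
Levels in CPM of each of the 7 genes, with 1 point per library and the mean and SD of the 3 libraries of each group; each panel has its own axis from 0. CDKN1A and CDKN2B have their lowest points in DMSO, CDKN2C drops from about 20.2 CPM to between 0.905 and 2.33 CPM, and CDKN2D is lowest under abemaciclib alone, at 11.2 CPM.

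The treatments changed the order of the genes as well as their levels. Under abemaciclib the order was CDKN2A (56.1 ± 3.73 CPM), CDKN1A (46.4 ± 1.70), CDKN1B (37.6 ± 2.35), CDKN2B (26.8 ± 3.12), CDKN2D (11.2 ± 3.54), CDKN1C (2.82 ± 0.727) and CDKN2C (1.82 ± 0.491), and only the last pair of neighbours had overlapping libraries. Under fulvestrant it was CDKN1A (132 ± 10.1 CPM), CDKN2A (58.0 ± 7.46), CDKN1B (43.4 ± 3.67), CDKN2B (31.6 ± 1.99), CDKN2D (19.2 ± 1.65), CDKN1C (5.38 ± 1.77) and CDKN2C (2.33 ± 0.762), with no overlap between neighbours. The combination kept the fulvestrant order, with CDKN1A at 116 ± 4.25 CPM and CDKN2A at 58.7 ± 2.76 CPM, and there CDKN1B (41.2 ± 2.65 CPM) and CDKN2B (37.6 ± 6.14 CPM) overlapped.

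Summed over the family, CIP/KIP transcripts came to 75.6 ± 1.35 CPM in DMSO, 86.7 ± 1.82 CPM under abemaciclib, 181 ± 8.51 CPM under fulvestrant and 160 ± 7.00 CPM under both drugs. INK4 transcripts came to 126 ± 7.73, 96.0 ± 6.83, 111 ± 7.80 and 115 ± 9.95 CPM in the same order. INK4 reads outnumbered CIP/KIP reads in every DMSO and abemaciclib library, and CIP/KIP reads outnumbered INK4 reads in every library with fulvestrant. CDKN1A alone supplied 7.56% ± 0.491 of the reads of the 7 genes in DMSO, 25.4% ± 1.22 under abemaciclib, 45.2% ± 0.991 under fulvestrant and 42.2% ± 2.00 under both drugs. CDKN2A went from 37.8% ± 2.02 to 30.7% ± 1.93, 19.8% ± 1.48 and 21.4% ± 0.778. CDKN2B took 3.56% ± 0.166 in DMSO and 10.9% to 14.7% on average under treatment, and CDKN2C went from 10.0% ± 1.80 to below 1%, namely 0.992%, 0.803% and 0.330%. Within the INK4 family, therefore, reads of CDKN2B came to exceed those of CDKN2C and CDKN2D in all 9 treated libraries.

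**Figure D4:**
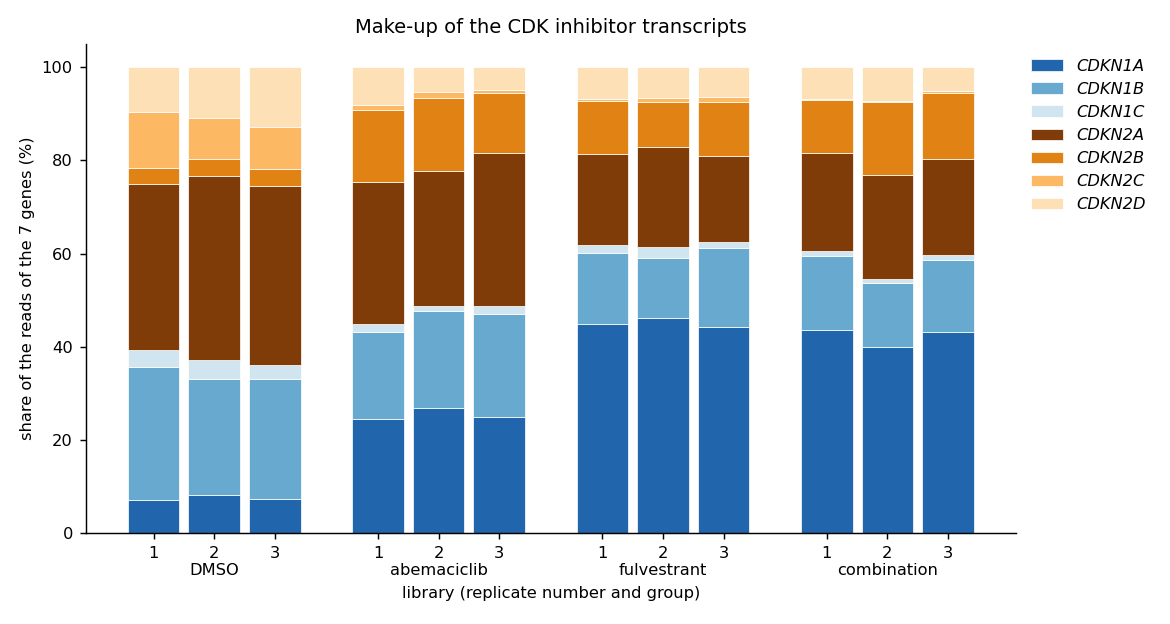
Share of the reads of the 7 genes (%, stacked to 100) taken by each gene in each of the 12 libraries. The CDKN1A segment widens from a mean of 7.56% in DMSO to 45.2% in fulvestrant, and the CDKN2C segment shrinks from 10.0% to 0.330% in the combination.

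Adding fulvestrant to abemaciclib raised 3 of the 7 genes and lowered 0 (edgeR quasi-likelihood test), against 33.5% of all genes called, 15.9% higher and 17.7% lower. These were CDKN1A, CDKN2B and CDKN2D, with the values given above. The 4 others had log2 differences between -0.99 and 0.14 and adjusted p-values from 0.105 to 0.855. Fulvestrant alone likewise exceeded abemaciclib alone in 3 genes, CDKN1A, CDKN1C and CDKN2D, and was lower in 0, against 29.0% of all genes, 13.4% higher and 15.5% lower.

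Adding abemaciclib to fulvestrant changed 0 of the 7 genes in edgeR, which called 1.92% of all genes, 0.297% higher and 1.63% lower. DESeq2 also called 0 of the 7, and 210 of all genes. The differences were -0.19 for CDKN1A, -1.01 for CDKN1C (95% interval -1.69 to -0.33, adjusted p = 0.150) and -1.32 for CDKN2C. The last rests on 3 to 13 reads per library. Without fulvestrant replicate 3, the library that stood apart, CDKN1C passed the threshold (-1.21, adjusted p = 0.0400). Intervals for the others were -0.31 to 0.15 for CDKN1B, -0.03 to 0.53 for CDKN2B and -0.54 to 0.25 for CDKN2D.

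The interaction asked whether the change under abemaciclib was the same with fulvestrant as without it. It is the log2 change from fulvestrant to the combination minus that from DMSO to abemaciclib. Of the 6 members other than CDKN2C, 4 passed the test, 2 with a higher and 2 with a lower value. The background was 21.1% of all genes, 9.49% higher and 11.6% lower. With CDKN2C the count was 5 of 7, but DMSO, through which the filter kept that gene, is part of the interaction. CDKN1A rose by 1.59 under abemaciclib alone and differed by -0.19 when abemaciclib was added to fulvestrant, an interaction of -1.78 ± 0.15 (SE; edgeR adjusted p = 2.10e-09). CDKN2B gave 1.89 and 0.25, an interaction of -1.64 ± 0.22 (adjusted p = 5.69e-06). Among the genes that abemaciclib lowered, the difference it made on top of fulvestrant was less negative for CDKN2D (0.85 ± 0.28, adjusted p = 0.0286) and CDKN2A (0.47 ± 0.15, adjusted p = 0.0258). The value for CDKN2C was 2.10 ± 0.60, given as a description without a p-value. Its libraries with fulvestrant held 6, 9 and 13 reads and those with both drugs 3, 4 and 6. CDKN1B (0.42, 95% interval 0.10 to 0.74, adjusted p = 0.0551) and CDKN1C (0.33, 95% interval -0.63 to 1.29, adjusted p = 0.663) did not pass.

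The interactions of CDKN2A and CDKN2D lost their calls when certain single libraries were left out. For CDKN2A the adjusted p was 0.0835 and 0.0561 without DMSO replicate 2 or 3, 0.0809 without abemaciclib replicate 2, 0.0694 without combination replicate 2 and 0.0545 without fulvestrant replicate 1. For CDKN2D it was 0.0545 and 0.0880 without DMSO replicate 2 or 3, 0.0882 and 0.0894 without abemaciclib replicate 2 or 3, and 0.0617 and 0.0918 without combination replicate 1 or 2. Without combination replicate 3 the value for CDKN2C was 1.86 and fell short of the threshold. With or without that library, the threshold carries no weight for CDKN2C. CDKN1B passed without combination replicate 2 (0.0498) or fulvestrant replicate 3 (0.0322), and with at least 10 counts required in every library (0.0493).

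**Figure D5:**
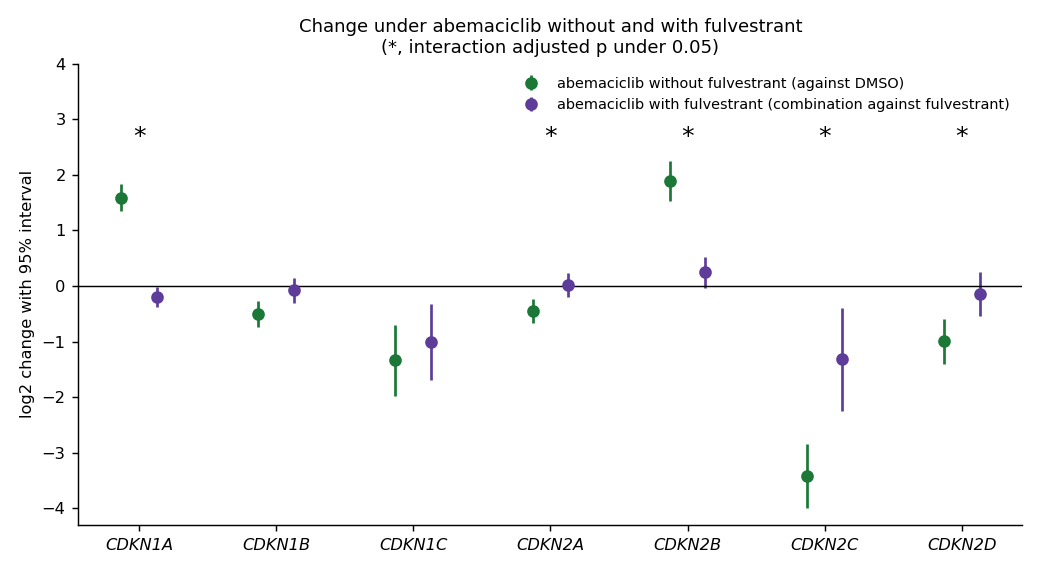
Log2 change under abemaciclib, with 95% interval, for each of the 7 genes without fulvestrant (abemaciclib against DMSO) and with it (combination against fulvestrant); asterisks mark an interaction that passed the test. For CDKN2C the asterisk carries no weight, since the filter kept that gene only through DMSO. CDKN1A and CDKN2B sit well above 0 without fulvestrant, at 1.59 and 1.89, and near 0 with it, at -0.19 and 0.25.

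The pathway counts that follow stand against the shares of all genes called, which were 20.5% higher and 20.7% lower under abemaciclib, 25.3% and 25.7% under fulvestrant and 27.7% and 27.5% under the combination, with medians over all genes of 0.00, 0.01 and 0.01. Of 12 listed kinases and cyclins that these proteins inhibit, 9 were tested, and 1 was higher and 7 lower under abemaciclib, 0 and 8 under fulvestrant, and 0 and 9 under the combination. The median log2 fold changes were -1.25, -1.66 and -1.73. CDK1, the mitotic kinase, had log2 fold changes of -2.25 ± 0.15, -3.28 ± 0.17 and -7.20 ± 0.25 (edgeR adjusted p = 1.32e-12, 2.61e-15 and 4.64e-19). The last value is coarse, as the combination libraries held 9 reads of CDK1 in all. CCNB1, its cyclin B1 partner, went from 103 ± 5.86 CPM in DMSO to 36.6 ± 6.37, 12.0 ± 1.32 and 5.38 ± 0.378 CPM. CCNA2, cyclin A2, went from 94.1 ± 3.17 to 8.38 ± 0.376 and 6.97 ± 1.53 CPM, and the combination libraries held 2 of its reads in all. The partner that rose under abemaciclib was CCND1, cyclin D1, named after its values were seen (1.10 ± 0.07, adjusted p = 1.20e-12), and it fell under fulvestrant (-1.66, adjusted p = 2.04e-16) and the combination (-1.41, adjusted p = 2.50e-15).

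Of 14 listed genes for the degradation of CIP/KIP proteins, all tested, 1 was higher and 6 lower under abemaciclib, 2 and 7 under fulvestrant, and 2 and 7 under the combination, with medians of -0.15, -0.27 and -0.27. The background shares called in either direction were 41.2%, 51.0% and 55.2%, here and for the lists below. SKP2, the ubiquitin ligase subunit that recognises p27, went from 45.6 ± 6.71 CPM to 17.7 ± 1.19, 18.7 ± 4.09 and 18.1 ± 3.23 CPM, log2 fold changes of -1.37, -1.31 and -1.35 (edgeR adjusted p = 8.08e-08, 1.13e-07 and 3.95e-08). Its cofactor CKS1B was 350 ± 78.5 CPM in DMSO, did not pass under abemaciclib (-0.13, adjusted p = 0.591) and fell under fulvestrant (-0.94, adjusted p = 0.00150) and the combination (-0.91, adjusted p = 0.00165). DTL, the subunit that targets p21 during replication, had log2 fold changes of -2.86, -3.80 and -7.43, its cofactor PCNA of -2.37, -2.20 and -2.93, and CDC20, a mitotic ligase activator, of -1.72, -3.80 and -6.78, all past the test. The combination libraries held 8 reads of DTL and 8 of CDC20 in all, so their folds there are coarse. The genes that rose were SKP1 (0.26, 0.31 and 0.45) and, under fulvestrant and the combination, CUL4B (0.52 and 0.61), both named after their values were seen.

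Of 16 listed transcription factors known to activate CDK inhibitor genes, 14 were tested, and 3 were higher and 2 lower under abemaciclib, 8 and 0 under fulvestrant, and 7 and 0 under the combination, with medians of 0.14, 0.30 and 0.30. The numbers called under abemaciclib and the combination, 5 and 7 of 14, were below the background shares of 41.2% and 55.2%. FOXO1 rose by 0.84, 1.24 and 1.14 (edgeR adjusted p = 0.0121, 0.000222 and 0.000432). FOXO3 was 22.5 ± 0.986 CPM in DMSO and 27.3 ± 4.02 CPM under abemaciclib (adjusted p = 0.121), and rose to 49.8 ± 4.81 and 47.6 ± 3.02 CPM under fulvestrant and the combination. KLF6, a zinc finger factor that binds GC boxes, rose by 0.63, 0.37 and 0.39 (adjusted p = 1.12e-05, 0.00289 and 0.00167). The Sp1-type factors SP1 and SP3 were named after their values were seen. SP1 differed by -0.08, 0.32 and 0.19 (adjusted p = 0.600, 0.0163 and 0.141) and passed only under fulvestrant. SP3 differed by -0.17, 0.04 and 0.05 (adjusted p = 0.348, 0.849 and 0.791) and did not pass. GATA3, a luminal factor, was lower under abemaciclib (-0.23, adjusted p = 0.0422) and higher under fulvestrant (0.29, adjusted p = 0.00871) and the combination (0.29, adjusted p = 0.00844).

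Of 19 listed repressors of these genes, mostly Polycomb subunits, 18 were tested. Under abemaciclib 4 were higher and 5 lower, under fulvestrant 6 and 5, and under the combination 7 and 6, with medians of -0.04, 0.23 and 0.09, beside 41.2%, 51.0% and 55.2% of all genes called in either direction. EZH2, the Polycomb methyltransferase known to silence the CDKN2A and CDKN2B locus, fell from 247 ± 15.3 CPM to 76.6 ± 4.53, 74.3 ± 1.62 and 59.1 ± 2.13 CPM (edgeR adjusted p = 4.30e-15, 1.19e-15 and 1.72e-17). ID1, an inhibitor of helix-loop-helix factors, rose by 0.70, 1.57 and 1.32. MYC, which represses CDKN1A and CDKN2B, did not pass under abemaciclib (0.12, adjusted p = 0.825) and fell under fulvestrant (-1.40, adjusted p = 0.0222) and the combination (-1.93, adjusted p = 0.00428), with DMSO libraries spread from 8.61 to 27.5 CPM. Fulvestrant libraries, at 4.33 to 10.6 CPM, overlapped the DMSO libraries, and combination libraries, at 2.89 to 7.03 CPM, lay below them.

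Of 8 other listed genes whose products restrain CDKs, 7 were tested, with 0 higher and 4 lower under abemaciclib, 1 and 3 under fulvestrant, and 1 and 4 under the combination, and medians of -0.93, -0.38 and -0.85, beside the same background shares. CDKN3, a CDK phosphatase, and PKMYT1, a kinase that inhibits CDK1, fell to 0.684 ± 0.405 and 0.626 ± 0.148 CPM under the combination from 49.7 ± 5.14 and 59.9 ± 6.29 CPM. The combination libraries held 10 reads of CDKN3 and 9 of PKMYT1 in all, so these levels are coarse. RBL1, which encodes the Rb relative p107, fell (-1.93, -2.08 and -2.63, edgeR adjusted p = 5.58e-09, 1.41e-09 and 2.10e-11), whereas RBL2, which encodes p130, did not pass (0.20, -0.06 and 0.02, adjusted p = 0.180, 0.685 and 0.887). The gene that rose was HEXIM1, an inhibitor of the elongation kinase P-TEFb, named after its values were seen (0.82 under fulvestrant and 0.93 under the combination).

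For each member, the genes with the most similar profile were found as those with the smallest root mean square difference of centred log2 CPM over the 12 libraries, among 8472 genes. For CDKN1A they included PIK3IP1 (0.227) and KIFC3 (0.246). For CDKN2B they were SCGB2A2 (0.134), CTSO (0.175) and SLC4A11 (0.192), and for CDKN2C H4C3 (0.337), MT2A (0.393) and WDR76 (0.400). CDKN1B lay closest to RBPJ (0.0597), PSMC5 (0.0717) and PNISR (0.0798), and CDKN2A to SF1 (0.0756), HMGN1 (0.0772) and LUC7L2 (0.0780). CDKN1C lay closest to RELL1 (0.254), GPNMB (0.295) and EPS8 (0.296), and CDKN2D to TMEM60 (0.228), GUSB (0.232) and EXOC3-AS1 (0.239). The libraries and treatment steps are shared by all genes, so that these distances describe the profiles and carry no test.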

How the data were processed

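The deposited values were whole-number read counts, not normalised, per gene for 12 libraries of CAMA-1 cells. Per the study's methods and processing notes, the authors trimmed the reads, aligned them to hg38 with STAR and counted them with featureCounts 2.0.1 on GENCODE annotation; the strand setting is not given in the sources used here. The labels name no molecular identifiers, so intervals cover the spread between libraries only. The 44 rows without a gene name held 0 reads and were left out. Groups were taken from the treatment label, with 3 libraries each.

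Counts were analysed with edgeR 4.0.16 in R 4.3.3. Genes passing filterByExpr (minimum count 10, minimum total 15) were kept (11803 genes), library sizes were scaled by TMM, and 1 model of 4 group means without covariates was fitted to the 12 libraries together, with robust quasi-likelihood F tests (biological coefficient of variation 9.18%). P-values for 6 pairwise comparisons and the interaction were adjusted by Benjamini-Hochberg over all genes tested, with a threshold of 0.05. Standard errors came from the F statistic. CPM values use TMM-scaled totals, and log2 CPM a prior count of 2. The pipeline was tested on simulated data. Alternatives were DESeq2 1.42.0 (the study's own test), other scaling factors, other filters, fewer groups in the fit, a replicate block and leaving out each library.

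Coordinates are from GENCODE v44 on GRCh38 and promoters from RefSeq. The text names all 7 members, up to 3 genes per pathway list with the largest change against DMSO and a mean of at least 5 CPM, preset genes, the 3 genes most like each member (mean of at least 10 CPM) and annotated neighbours within 50 kb of CDKN2A or CDKN2B. Some genes that this rule selects, and a list, are not reported here. The members and lists were chosen with earlier results of these data known.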

Additional observations from a re-analysis of the deposited data

Results flagged for a closer look

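For 4 of the 6 CDK inhibitor genes other than CDKN2C the change under abemaciclib differed with and without fulvestrant, by an edgeR test of the difference itself. Over all genes 21.1% were called, 9.49% higher and 11.6% lower. With CDKN2C the count was 5 of 7. The log2 difference between the changes was -1.78 for CDKN1A (adjusted p = 2.10e-09) and -1.64 for CDKN2B (adjusted p = 5.69e-06), the genes that abemaciclib alone raised. It was 2.10 for CDKN2C, 0.85 for CDKN2D (adjusted p = 0.0286) and 0.47 for CDKN2A (adjusted p = 0.0258), which abemaciclib alone lowered. For CDKN2C, the libraries with both drugs held only 3, 4 and 6 reads and the filter kept the gene only through DMSO, so that this value is a description. The calls for CDKN2A and CDKN2D were each lost when certain single libraries were left out. CDKN2C fell short of the threshold without combination replicate 3, but for this gene the threshold carries no weight in any setting.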

How the results depend on the processing

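Of 910 log2 values of the members recomputed under 19 alternative settings, 865 kept their direction and side of the threshold, 34 lost their call, 6 gained one and 5 changed sign. The sign changes were in differences that did not pass the test, with ranges over left-out libraries of -0.31 to 0.01 for CDKN1C, combination against abemaciclib, -0.05 to 0.13 for CDKN2A, fulvestrant against abemaciclib, and -0.07 to 0.12 for CDKN2A, combination against fulvestrant. The count of all genes called between combination and fulvestrant, 227 in the report's fit, was 91 with at least 10 counts in every library and 130 with only those groups fitted, and ran from 144 (without combination replicate 3) to 590 (without fulvestrant replicate 3). Leaving out single libraries, the members called, CDKN2C included, ran from 0 to 1 between combination and fulvestrant. They ran from 1 to 3 between combination and abemaciclib, where all genes called ran from 3195 to 4462. In the interaction they ran from 3 to 6, and all genes called from 1978 to 3318. The lowest member counts between combination and abemaciclib came without abemaciclib replicate 3 or combination replicate 2. Those in the interaction came without DMSO replicate 2, DMSO replicate 3 or abemaciclib replicate 2. CDKN1C and CDKN2C have no value under the filter of 10 counts in every library. The replicate numbers did not pair the libraries: correlations of deviations between same-numbered libraries were -0.215 to 0.119 over 18 pairs, 2 of them over 0.1, and 5 of 12 libraries correlated best with their own number. With a replicate block, 7, 5 and 6 members, CDKN2C included, were called under abemaciclib, fulvestrant and the combination. No call of a member changed in any comparison. All genes called were 4799, 5978 and 6472. Depth limited CDKN1C and CDKN2C most.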
